A study of Rattus norvegicus with 6 samples.

Results

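The genes described here are 27 genes of cholesterol synthesis, its control and its transport, measured in rat tissue labelled as cerebellum after acute alcohol intoxication. They were chosen by symbol from a list of genes of this pathway. Each of the 27 was found among the 26419 features tested, taking the row with the highest mean where a gene had several. Msmo1 and Sc5d stand in the files under the older symbols Sc4mol and Sc5dl. The arrays were single-colour NimbleGen oligonucleotide arrays, and a level is the log2 of the deposited RMA intensity. RMA, robust multi-array average, corrects the background, brings arrays to a common scale and summarises the probes of a sequence. Every one of the 27 genes was at or above 50 in intensity (5.64 in log2), the floor of the submitters' own value table, on all 6 arrays, so the members form no subset that a filter on low values selected. Levels are compared between arrays within a gene and never between genes, because different probes respond differently.

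The alcohol group was 3 pools of tissue from male Sprague-Dawley rats that received 15 ml/kg of 40% alcohol through gavage. The control group was 3 pools from male rats of the same strain that received an equal volume of salt solution, which the labels call brine in one place and saline in another. All rats were 8 to 10 weeks old, weighed 240 to 260 g and had fasted for 12 h, and each pool mixed the cerebella of 3 rats. Pooling hides the variation between the rats of a pool, so the p-values measure only the spread between pools. The time between gavage and tissue collection and the array batches are not given in the sources used here.

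Cells make cholesterol from acetyl-CoA through mevalonate, squalene and lanosterol. When membrane sterol is low, the factor SREBP-2, held back by INSIG proteins, is released and raises transcription of most enzymes of the route. The brain makes its own cholesterol behind the blood-brain barrier, much of it in oligodendrocytes for myelin and in astrocytes, which pass it on in particles carrying apolipoprotein E. Neurons dispose of the excess through the 24-hydroxylase CYP46A1.

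Promoter sequences are shown for 5 members as a description of the genes. Whether promoter letters have a part in the variation over the arrays described below was not tested. RefSeq promoters of the rat assembly GRCr8, each reaching 250 bases before and 50 bases after a gene's start, were found for 22 of the 27 genes (25 promoters). Capitals mark CCAAT, the box bound by the factor NF-Y, or its reverse complement. Hmgcs1, Msmo1, Dhcr7 and Insig1 are members that varied with the bulk of the route, and Idi1 is one that did not.
Hmgcs1 (chr2:53382054-53382353, plus strand): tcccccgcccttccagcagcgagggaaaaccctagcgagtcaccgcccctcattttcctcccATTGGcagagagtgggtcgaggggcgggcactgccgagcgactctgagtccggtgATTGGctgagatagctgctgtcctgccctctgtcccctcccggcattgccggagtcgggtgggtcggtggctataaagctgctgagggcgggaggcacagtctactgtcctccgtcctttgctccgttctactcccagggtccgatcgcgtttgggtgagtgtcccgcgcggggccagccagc
Msmo1 (chr16:29746863-29747162, plus strand): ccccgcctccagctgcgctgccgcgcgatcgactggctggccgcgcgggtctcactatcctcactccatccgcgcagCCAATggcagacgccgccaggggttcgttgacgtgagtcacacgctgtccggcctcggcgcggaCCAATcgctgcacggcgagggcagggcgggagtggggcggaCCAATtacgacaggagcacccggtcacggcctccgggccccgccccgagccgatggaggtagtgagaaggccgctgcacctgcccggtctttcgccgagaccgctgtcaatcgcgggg
Dhcr7 (chr1:208444184-208444483, plus strand): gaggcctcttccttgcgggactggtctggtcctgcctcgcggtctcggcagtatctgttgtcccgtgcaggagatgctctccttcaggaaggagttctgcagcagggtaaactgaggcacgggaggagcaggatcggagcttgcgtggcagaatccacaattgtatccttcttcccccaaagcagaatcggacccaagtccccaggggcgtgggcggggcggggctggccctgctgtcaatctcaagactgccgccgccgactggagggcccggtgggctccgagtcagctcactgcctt
Insig1 (chr4:8057720-8058019, minus strand): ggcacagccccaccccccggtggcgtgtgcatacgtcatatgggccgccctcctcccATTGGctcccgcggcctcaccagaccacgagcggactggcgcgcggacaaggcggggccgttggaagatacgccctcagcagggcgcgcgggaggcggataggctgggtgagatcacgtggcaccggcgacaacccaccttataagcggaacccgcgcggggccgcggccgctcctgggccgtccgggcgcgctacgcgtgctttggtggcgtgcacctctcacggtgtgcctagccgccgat
Idi1 (chr17:66547475-66547774, minus strand): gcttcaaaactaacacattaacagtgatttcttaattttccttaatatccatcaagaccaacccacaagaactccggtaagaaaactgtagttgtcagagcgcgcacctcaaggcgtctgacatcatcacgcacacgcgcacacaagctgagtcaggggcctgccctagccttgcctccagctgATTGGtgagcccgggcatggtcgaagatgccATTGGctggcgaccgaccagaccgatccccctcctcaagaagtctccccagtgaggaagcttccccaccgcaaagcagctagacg

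The search covered both strands for 4 motifs, and a CCAAT box and a GC box can share bases. CCAAT was found in 20 of the 25 member promoters (80.0%), against 37.5% of all 33469 promoters of this length and 38.0% of the 21842 of protein-coding genes. The GC box GGGCGG, bound by SP1, was found in 21 of 25 (84.0%), against 33.1% of all promoters and 41.8% of those of protein-coding genes. The E-box CACGTG was found in 3 of 25, those of Sc5d, Insig1 and Abca1, against 6.42% of all promoters. The sterol element letters TCACNCCAC were in 0 of 25 and in 1.12% of all promoters. Only this form of the element was searched, so the lack of a match does not show that a promoter lacks a sterol element. Of the sequences printed, that of Msmo1 holds 3 CCAAT boxes, those of Hmgcs1 and Idi1 hold 2 each, that of Insig1 holds 1, and that of Dhcr7 holds 0 with 2 GC boxes. These are matches of letters, described without a test.

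Before any comparison of treatments, 2 arrays stood apart from the other 4. Most markers of cerebellar neurons were lower in alcohol pool 2 and control pool 1: 12 of 12 granule cell markers and 11 of 12 Purkinje cell markers were lower on both of these arrays than on each of the other 4. The Purkinje marker Pcp2 had a log2 level of 5.27 on the array of alcohol pool 2 and of 5.65 on that of control pool 1, while the rest lay between 13.42 and 13.60. The markers were reduced to different degrees: 3 granule cell markers and 1 Purkinje cell marker were under an intensity of 50 in alcohol pool 2, and 1 and 0 in control pool 1, while Pcp4 had 14.50 in alcohol pool 2 and 14.47 in control pool 1, close to its other values. All 13 oligodendrocyte markers, all 10 microglial markers and all 8 endothelial markers were higher on both arrays, as were 8 of 12 markers of astrocytes and Bergmann glia, while 3 of those 12, among them the Bergmann glia gene Gdf10, were lower. Of 9 brainstem markers, 6 were higher, including the serotonin transporter Slc6a4. Many were dim: 3 of the 9 were under an intensity of 50 on each of these 2 arrays, and 6 to 8 on each of the other 4. Fev, counted as higher, was itself under that floor in control pool 1, at a log2 level of 5.05. Alcohol pools 1 and 3 and control pools 2 and 3 thus had high levels of the cerebellar neuron markers that the label implies, and the other 2 pools, called marker-low below, did not. The summed intensity of the 8 choroid plexus markers was 16925 in alcohol pool 1, 2464 and 2678 in alcohol pools 2 and 3, and 2213 to 2675 in control pools. Most of the sum in alcohol pool 1 was Ttr, at 13.67 there against 6.78 to 9.04 on the other arrays. Folr1, Sostdc1 and Clic6 were also highest in alcohol pool 1, while Kl, Aqp1, Kcnj13 and Otx2 were not. Because each group holds 1 such pool, values are given below for all 6 arrays, for the 4 arrays with high cerebellar markers and for alcohol pool 2 against control pool 1.

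**Figure D1:**
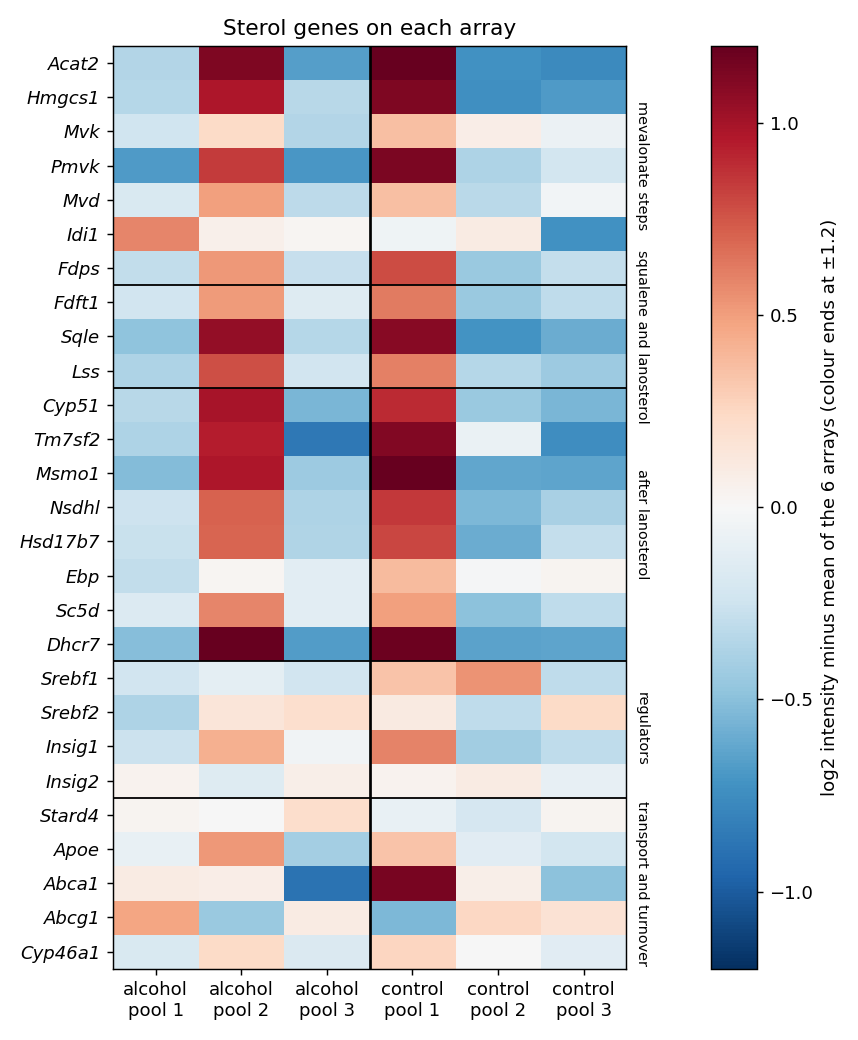
Heat map of the 27 sterol genes (rows, in order of their role) on the 6 arrays (columns, alcohol left, control right). Colour is the log2 intensity minus the gene's mean over the 6 arrays, and most enzymes of synthesis are red in alcohol pool 2 and control pool 1 and blue in the other 4 columns.

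The enzymes that make cholesterol were higher in alcohol pool 2 and control pool 1 than in the other 4 pools, whichever group the pool belonged to. Of the 18 enzymes, 16 (88.9%) were higher on both of these arrays than on each of the other 4, and of all 27 members 19 (70.4%) were, while 23.4% of all features followed that order. Among the 15882 features at or above 50 on all 6 arrays, as every member was, 30.9% did. The smaller of the 2 values exceeded the highest of the other 4 by 0.16 to 1.69 on the log2 scale in these 19 members, with a median of 0.95. The median gap was 0.42 over all features with that order, and 0.43 over those of them at or above 50 on all 6 arrays. A gap of 1 or more, a doubling of intensity, was reached by 8 of 27 members (29.6%) and by 4.75% of all features. The share was 6.26% among the features at or above 50 on all 6 arrays. The 8 members were Acat2, Hmgcs1, Pmvk, Sqle, Cyp51, Tm7sf2, Msmo1 and Dhcr7. The pools were set apart by their own values and are not groups of the study, so no test was made. The summed intensity of the 13 oligodendrocyte markers ran from 85292 to 226506 in alcohol pools and from 76941 to 230307 in control pools, highest in alcohol pool 2 and control pool 1, and none of these markers was under 50 on any array. That of the 12 markers of astrocytes and Bergmann glia ran from 86042 to 119102 in alcohol pools and from 87984 to 107397 in control pools, with the same 2 arrays highest. The part of these cell types in the levels of the sterol genes was not tested. In pooled tissue, fewer cells of a type and less RNA per cell cannot be told apart.

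**Figure D2:**
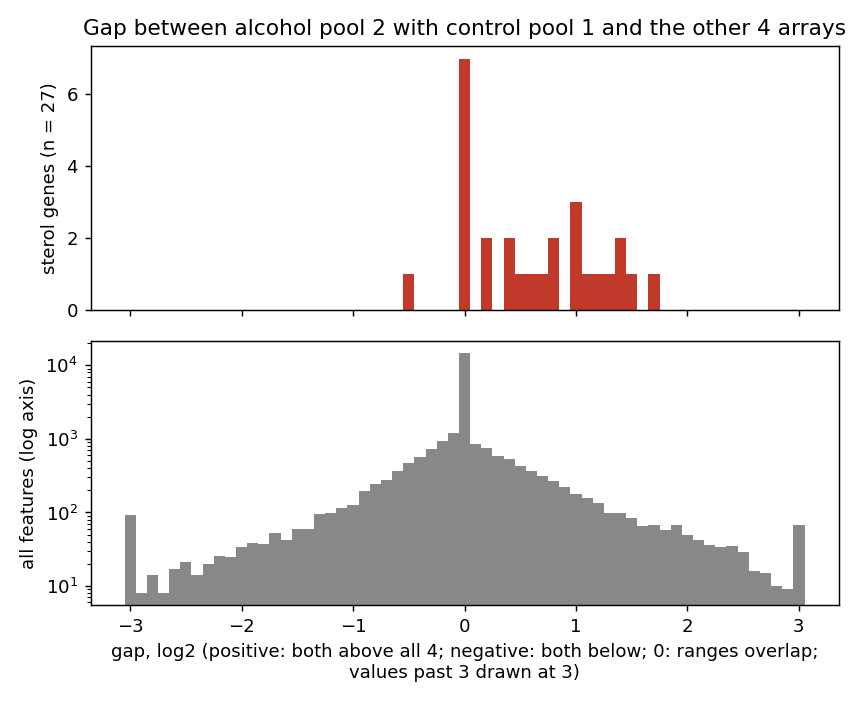
Histograms of the log2 gap between alcohol pool 2 with control pool 1 and the other 4 arrays, for the 27 sterol genes (top, count) and all 26419 features (bottom, count on a log axis). Of the 27 genes 19 lie above 0 and 1, Abcg1, below 0.

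The first steps of the route build mevalonate and turn it into farnesyl diphosphate. Acat2, the cytosolic thiolase that joins 2 acetyl-CoA, was at 10.22, 11.70 and 9.91 in alcohol pools 1, 2 and 3, against 11.95, 9.85 and 9.81 in control pools 1, 2 and 3. Hmgcs1, HMG-CoA synthase, was at 12.47, 13.78 and 12.47 in alcohol pools 1, 2 and 3, against 13.93, 12.07 and 12.12 in control pools 1, 2 and 3. In both genes the groups overlapped over 6 arrays, and within the 4 arrays with high cerebellar markers both alcohol values lay above both control values. Pmvk, phosphomevalonate kinase, was at 9.94, 11.45 and 9.92 in alcohol pools 1, 2 and 3, against 11.74, 10.24 and 10.39 in control pools 1, 2 and 3. Mvk, mevalonate kinase, was at 9.23, 9.71 and 9.13 in alcohol pools 1, 2 and 3, against 9.84, 9.55 and 9.41 in control pools 1, 2 and 3. These kinases were ordered the other way, with the alcohol values below the control values both within the 4 arrays and between alcohol pool 2 and control pool 1. Idi1, isopentenyl diphosphate isomerase, was at 12.25, 11.72 and 11.69 in alcohol pools 1, 2 and 3, against 11.61, 11.76 and 10.94 in control pools 1, 2 and 3. It was the 1 mevalonate gene that did not follow the marker-low pools and its lowest value was that of control pool 3. Mvd, mevalonate diphosphate decarboxylase, and Fdps, farnesyl diphosphate synthase, differed by -0.0059 (SE 0.30) and -0.04 (SE 0.40) between alcohol and control pools.

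Squalene synthase, squalene epoxidase and lanosterol synthase make up the next 3 steps. Sqle, the epoxidase and a rate-controlling step, was at 10.58, 12.11 and 10.72 in alcohol pools 1, 2 and 3, against 12.15, 10.34 and 10.46 in control pools 1, 2 and 3. The groups overlapped because control pool 1 held the highest value, while within the 4 arrays both alcohol values were above both control values, by 0.25 on average. Fdft1, squalene synthase, was ordered in the same way, with a 4-array difference of 0.18 (SE 0.16), and Lss, lanosterol synthase, differed by 0.09 (SE 0.16) there.

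The 8 enzymes after lanosterol trim and rearrange the sterol ring. Msmo1, the C-4 methyl oxidase, was at 11.61, 13.10 and 11.70 in alcohol pools 1, 2 and 3, against 13.39, 11.51 and 11.51 in control pools 1, 2 and 3. Dhcr7, which makes cholesterol from 7-dehydrocholesterol, was at 9.03, 10.82 and 8.87 in alcohol pools 1, 2 and 3, against 10.72, 8.90 and 8.91 in control pools 1, 2 and 3. Dhcr7 had the largest gap of all members between the 2 marker-low pools and the rest, and its other 4 values spanned 0.16. Tm7sf2, a sterol C-14 reductase, was at 8.62, 9.94 and 8.14 in alcohol pools 1, 2 and 3, against 10.10, 8.91 and 8.25 in control pools 1, 2 and 3. Sc5d, the C-5 desaturase, was at 12.72, 13.48 and 12.76 in alcohol pools 1, 2 and 3, against 13.38, 12.40 and 12.58 in control pools 1, 2 and 3. Sc5d was higher in alcohol than in control pools in both kinds of pool, by 0.25 over the 4 arrays and 0.10 between alcohol pool 2 and control pool 1. Ebp, the sterol isomerase, was at 8.68, 9.00 and 8.85 in alcohol pools 1, 2 and 3, against 9.36, 8.97 and 9.01 in control pools 1, 2 and 3. Its groups overlapped only through alcohol pool 2, which lay just above control pool 2. The C-14 demethylase Cyp51 differed by 0.07 (SE 0.56) over 6 arrays, the C-4 dehydrogenase Nsdhl by 0.06 (SE 0.47) and the 3-keto reductase Hsd17b7 by 0.05 (SE 0.46), each with alcohol pool 2 and control pool 1 highest.

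**Figure D3:**
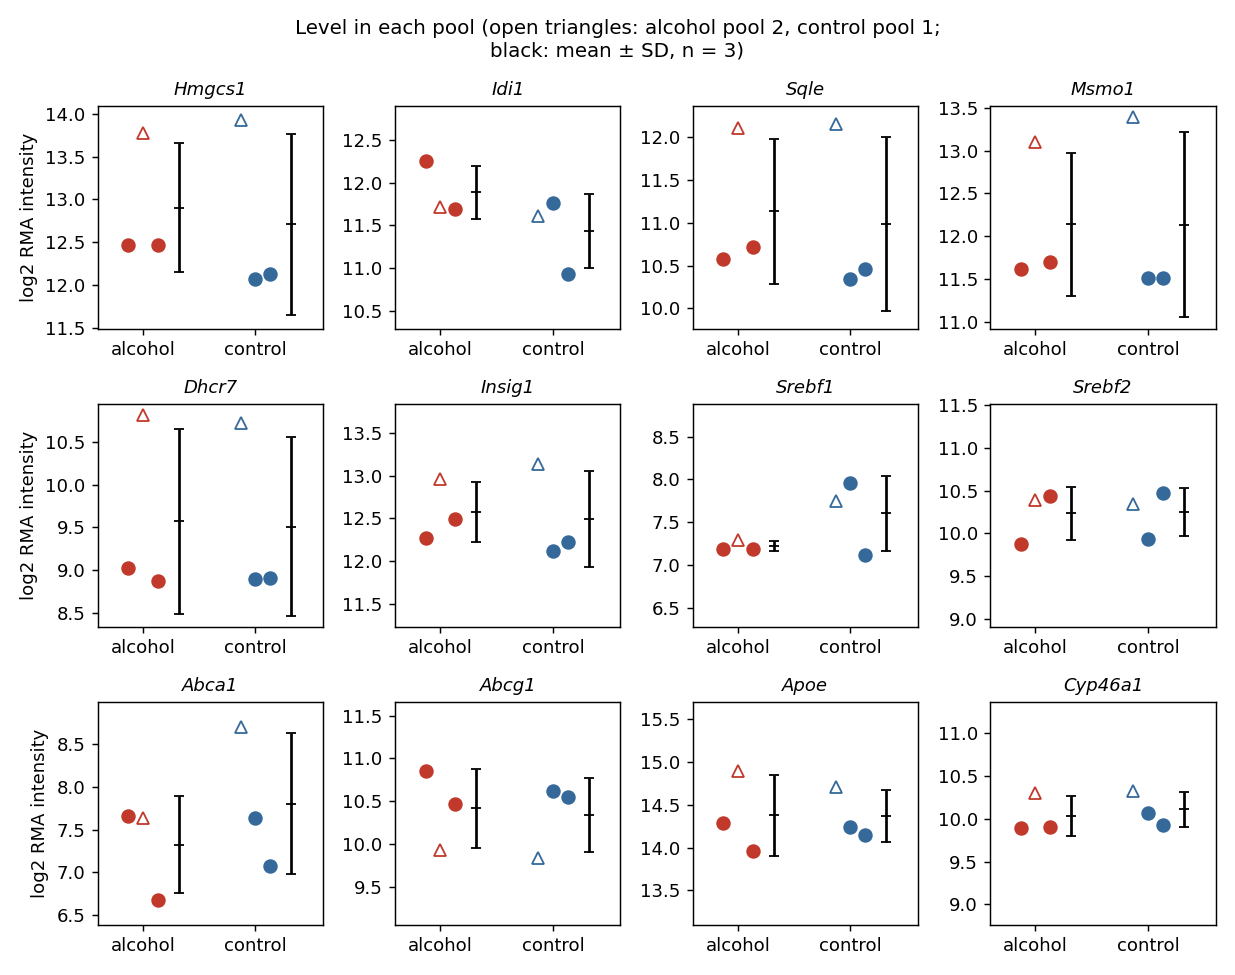
Log2 RMA intensity (vertical axis) of 12 sterol genes in the 3 alcohol pools (red, left) and the 3 control pools (blue, right). Open triangles are alcohol pool 2 and control pool 1, and black bars are the mean ± SD of 3 pools. The enzymes of synthesis except Idi1 have both triangles on top, and Abcg1 has both at the bottom.

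The regulators of the route varied less between arrays than its enzymes, with a median range over the 6 arrays of 0.72 for the 4 regulators and 1.39 for the 18 enzymes. Insig1, which retains SREBP in the endoplasmic reticulum and is itself a sterol-regulated gene, was at 12.27, 12.96 and 12.49 in alcohol pools 1, 2 and 3, against 13.13, 12.12 and 12.23 in control pools 1, 2 and 3. It was the 1 regulator that followed the enzymes, with the highest values in alcohol pool 2 and control pool 1. Srebf2, the gene of SREBP-2, was at 9.87, 10.38 and 10.44 in alcohol pools 1, 2 and 3, against 10.35, 9.93 and 10.47 in control pools 1, 2 and 3. Its groups overlapped and its values followed neither treatment nor the marker levels. Srebf1, whose products act more on fatty acid genes, was at 7.19, 7.29 and 7.18 in alcohol pools 1, 2 and 3, against 7.75, 7.95 and 7.11 in control pools 1, 2 and 3. Control pool 3 lay below all alcohol pools, so the groups overlapped. Insig2, the second INSIG gene, spanned 0.26 over the 6 arrays, the narrowest range of the 27 members.

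Genes of sterol transport and turnover did not share 1 pattern. Apoe, the main lipid carrier of the brain, was at 14.28, 14.89 and 13.96 in alcohol pools 1, 2 and 3, against 14.71, 14.24 and 14.15 in control pools 1, 2 and 3, highest in the 2 marker-low pools. Cyp46a1, the neuronal 24-hydroxylase, was at 9.89, 10.30 and 9.90 in alcohol pools 1, 2 and 3, against 10.33, 10.07 and 9.93 in control pools 1, 2 and 3. It too was highest in the 2 marker-low pools, in both of its rows. Its other row differed by 0.02 (SE 0.30) between alcohol and control pools, against -0.08 (SE 0.21) for the brighter row, so both rows lay within their error of 0. Abca1, which exports cholesterol to apolipoproteins, was at 7.66, 7.64 and 6.68 in alcohol pools 1, 2 and 3, against 8.70, 7.63 and 7.08 in control pools 1, 2 and 3. Control pool 1 stood well above every other array, and alcohol pool 2, the other marker-low pool, did not share that level. Stard4, a sterol carrier of the cytosol, was at 10.06, 10.02 and 10.24 in alcohol pools 1, 2 and 3, against 9.94, 9.83 and 10.06 in control pools 1, 2 and 3. Its groups overlapped, and its difference had the same sign within the 4 arrays (0.20) and between alcohol pool 2 and control pool 1 (0.09). Abcg1, an exporter of sterol to lipoproteins that was chosen for full values after they were seen, was at 10.85, 9.93 and 10.47 in alcohol pools 1, 2 and 3, against 9.83, 10.62 and 10.55 in control pools 1, 2 and 3. It was the 1 member with its lowest values in alcohol pool 2 and control pool 1.

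The comparison of alcohol with control pools asks whether acute intoxication changes cerebellar expression, and no member passed the test in it. With limma's fit over all 26419 features and Benjamini-Hochberg adjustment, 0 of 27 members had an adjusted p under 0.05, all adjusted p being 1.00, and 0.00% of all features were called in either direction. At an unadjusted p under 0.05 limma had 0 of 27 members, against 3.90% of all features. Among the 15882 features at or above 50 on all 6 arrays, 311 had such a limma p. The smallest unadjusted limma p among the members was 0.170, that of Idi1. Alcohol pools had the higher mean for 16 members and the lower for 11 (59.3% higher, against 45.9% of all features). The median difference was 0.05 for the members and -0.02 for all features, with single members between -0.48 and 0.45. In 0 of 27 members did the 3 alcohol values lie all above the 3 control values, against 4.39% of features, and in 0 all below, against 4.36%. With 3 arrays in each group, 0.10 is the smallest p that an exact permutation test could give for a single gene.

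The largest differences had standard errors from somewhat below to above their own size. Idi1 averaged 11.89 ± 0.31 in alcohol pools and 11.44 ± 0.44 in control pools (SD, n = 3 each), a difference of 0.45 (SE 0.29). Abca1 averaged 7.32 ± 0.56 in alcohol pools and 7.80 ± 0.83 in control pools (SD, n = 3 each), a difference of -0.48 (SE 0.48) that was -0.028 without control pool 1. Srebf1 averaged 7.22 ± 0.06 in alcohol pools and 7.61 ± 0.44 in control pools (SD, n = 3 each), a difference of -0.38 (SE 0.25). Pmvk, Ebp and Mvk differed by -0.36 (SE 0.57), -0.27 (SE 0.19) and -0.24 (SE 0.23). Hmgcs1 averaged 12.91 ± 0.75 in alcohol pools and 12.71 ± 1.06 in control pools (SD, n = 3 each), so that its difference of 0.20 (SE 0.62) was far inside the spread that the marker-low pools give. The median SE over the members was 0.36, and it was 0.14 when the fit also held an indicator of low cerebellar neuron markers, the marker term, set for alcohol pool 2 and for control pool 1. This term leaves each difference as it was, because each group holds 1 such pool.

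With the marker term, limma again called 0 of 27 members (adjusted p from 0.489 to 0.993), and 0.00% of all features in either direction. Pmvk was the 1 member with an unadjusted limma p under 0.05 there, at a difference of -0.36 (SE 0.12, adjusted p = 0.489), while 9.47% of all features had such a p. Alcohol was lower for Pmvk in both kinds of pool, by -0.39 within the 4 arrays and by -0.29 between alcohol pool 2 and control pool 1.

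**Figure D4:**
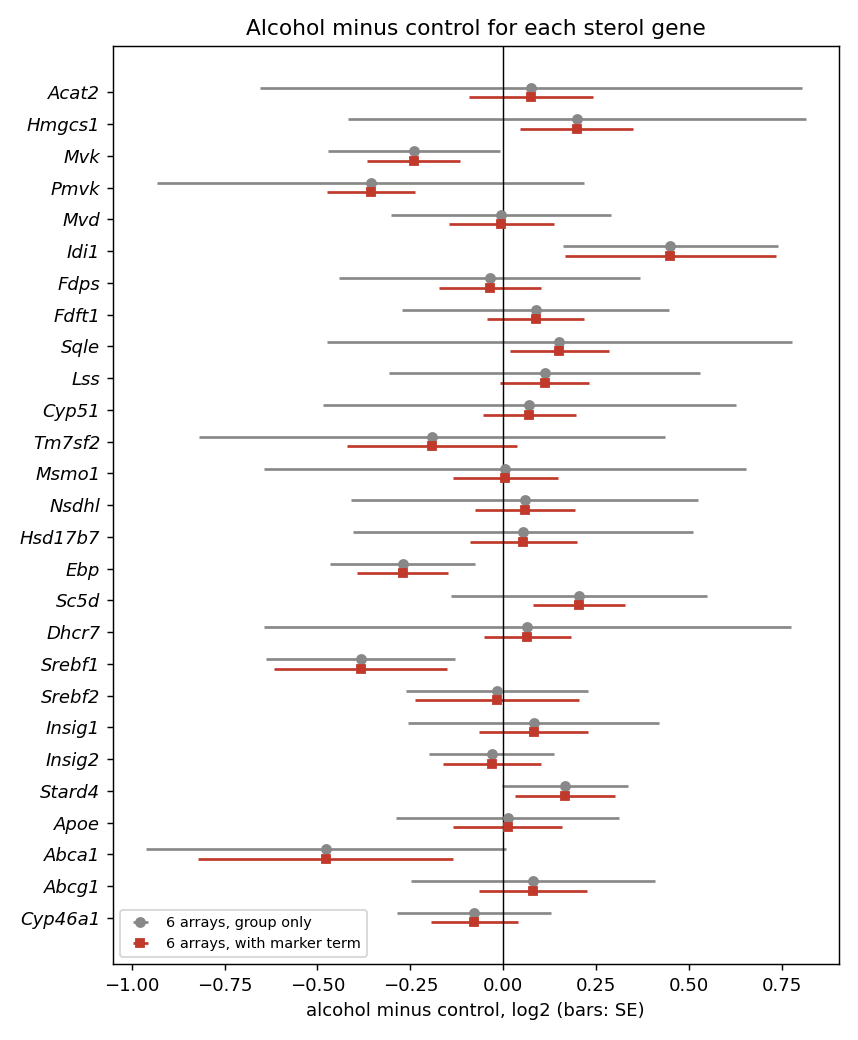
Difference alcohol minus control on the log2 scale (horizontal axis) for each sterol gene, with SE bars, in the limma fit with group only (grey) and with the marker term (red). The differences are the same in both fits, between -0.48 and 0.45, and the median SE is 0.36 in grey and 0.14 in red.

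Within the 4 arrays with high cerebellar markers, both alcohol values lay above both control values for 8 members and below them for 4. The 8 were Acat2, Hmgcs1, Fdft1, Sqle, Msmo1, Nsdhl, Sc5d and Insig1 (29.6% of 27, against 17.7% of all features), and the 4 were Mvk, Pmvk, Ebp and Cyp46a1 (14.8%, against 22.0%). Oligodendrocyte and choroid plexus markers differed on these arrays too, with a median difference of 0.21 over the 13 oligodendrocyte markers and 0.49 over the 8 choroid plexus markers. The summed intensity of the oligodendrocyte markers was 111290 and 85292 in alcohol pools 1 and 3, against 88751 and 76941 in control pools 2 and 3. The median difference was 0.034 over the 12 markers of astrocytes and Bergmann glia and -0.015 over the 10 microglial markers. The part of these cell types in the differences of the sterol genes was not tested. In limma's fit to these 4 arrays the largest of these differences were 0.37 (SE 0.15) for Hmgcs1 and -0.39 (SE 0.16) for Pmvk, and 0 of 27 members passed, with a smallest adjusted p of 0.643. Idi1 had a larger difference, 0.62 (SE 0.36), with overlapping groups. At an unadjusted limma p under 0.05 there were 0 of 27 members, against 8.03% of all features. Again 0.00% of all features were called in either direction. Alcohol pools had the higher mean for 17 of 27 members there, against 47.0% of all features. The median difference was 0.07 over the members and 0.11 over the 18 enzymes, against -0.02 over all features.

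Between alcohol pool 2 and control pool 1, which is 1 array against 1 and has no replicate, 10 members were higher and 17 lower, with a median difference of -0.11 and with 46.8% of all features higher. Abca1 had the largest difference there, -1.06. For 10 members, among them Hmgcs1, Acat2, Sqle, Msmo1 and Insig1, the 4-array difference was above 0 and that between alcohol pool 2 and control pool 1 below 0, an order held by 20.8% of all features. In all, 13 of 27 members had opposite signs in the 2 comparisons, against 41.4% of all features. For Hmgcs1 the values were 0.37 within the 4 arrays and -0.15 between the 2, and for Acat2 they were 0.24 and -0.25. Whether alcohol acted differently in the 2 kinds of pool was not tested.

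**Figure D5:**
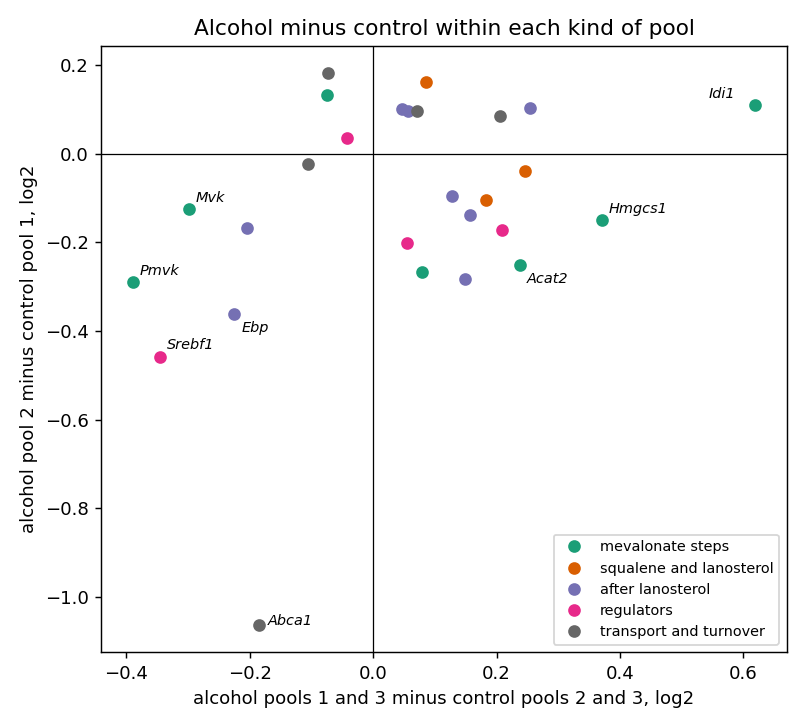
Alcohol minus control for each of the 27 sterol genes (points, coloured by role) within the 4 arrays with high cerebellar markers (horizontal axis, log2) and between alcohol pool 2 and control pool 1 (vertical axis, log2). Hmgcs1 and Acat2 lie right of 0 and below 0, Pmvk, Mvk and Ebp lie on the negative side of both axes, and Abca1 lies lowest at -1.06.

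Further genes of sterol and lipid handling came from a second list, of which 42 are described here. In limma 0 of the 42 passed in either direction, and 0 had an unadjusted p under 0.05. The median difference was -0.03, and alcohol pools were higher for 18 and lower for 24. Ch25h, which makes 25-hydroxycholesterol, was at 6.56, 7.08 and 6.26 in alcohol pools 1, 2 and 3, against 6.15, 6.28 and 5.93 in control pools 1, 2 and 3. Its groups overlapped by 1 pair, alcohol pool 3 and control pool 2, and its difference of 0.52 (SE 0.26) had the smallest unadjusted limma p over 6 arrays, 0.0887. Lipa, the lysosomal acid lipase that frees cholesterol from its esters, was at 8.85, 10.17 and 8.79 in alcohol pools 1, 2 and 3, against 10.62, 9.13 and 9.35 in control pools 1, 2 and 3. Lipa was lower with alcohol in both kinds of pool. With the marker term 2 of the 42 (4.76%) had an unadjusted limma p under 0.05, a smaller share than the 9.47% of all features, with adjusted p of 0.519 for Ch25h and 0.452 for Lipa, whose difference was -0.43 (SE 0.12). Within the 4 arrays both alcohol values lay above both control values for 4 of the 42 genes (9.52%, against 17.7% of all features) and below them for 8 (19.0%, against 22.0%). In limma's fit to these arrays 1 of the 42 (2.38%, against 8.03% of all features) had an unadjusted p under 0.05. It was Cyp27a1, a sterol hydroxylase, with a difference of -0.58 (SE 0.18) and a limma adjusted p of 0.577. The other 6 genes named by smallest p were the sterol-regulated Tmem97 (-0.24, SE 0.19), the SREBP-cleaving protease gene Mbtps2 (0.14, SE 0.17), Pgrmc1 (-0.21, SE 0.25), the desaturase Scd2 (0.22, SE 0.29), the receptor Lrp1 (-0.14, SE 0.20) and the transporter Abca5 (-0.12, SE 0.17).

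Of these 42 genes, 26 (61.9%) were higher in alcohol pool 2 and control pool 1 than in each of the other 4 pools and 8 were lower in both, set against 23.4% and 25.1% of all features. Of the 15882 features at or above 50 on all 6 arrays, as these 42 were, 4902 were higher and 5139 lower. Among the 42 genes the widest ranges were those of the carrier Apod (2.28), the esterifying enzyme Soat1 (2.11), the desaturase Fads2 (2.04), Lipa (1.83), Cyp27a1 (1.76) and the lipid-binding Fabp5 (1.64), each highest in the 2 marker-low pools. Among the 8 lower genes, the apolipoprotein E receptor Lrp8 had 8.96 for alcohol pool 2 and 8.92 for control pool 1, and its other arrays lay between 9.98 and 10.43. Lrp8 falls outside the naming rule and was chosen after its values were seen.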

How the data were processed

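Each of the 6 arrays was hybridised with Cy3-labelled material from 1 pool of 3 rats, per the labels. The authors deposited linear intensity values for each sequence, and the method RMA is credited to the submitters' processing notes. Its version, the joint or separate treatment of arrays and the genome build are not given in the sources used here. Median intensity per array lay between 213.2 and 232.8, and random-sequence probes between 23.3 and 25.5. The number of arrays limits precision.

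Intensities were put on the log2 scale with no further normalization. Groups came from the sample titles. Gene names came from a RefSeq table of GRCr8 through the gene identifier (20681 features) or the deposited symbol (2640 more). The comparison of groups used R 4.3.3 and limma 3.58.1 (lmFit and eBayes with group alone in the model, two-sided tests, Benjamini-Hochberg over 26419 features, threshold 0.05). Tables and plots used Python 3.11.15, pandas 2.3.3, numpy 2.4.6 and matplotlib 3.10.9.

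The members, the lists, the marker term and the other alternatives were chosen with earlier results of these data known. Values on every array are given for Hmgcs1, Sqle, Insig1, Srebf1, Srebf2, Abca1, Cyp46a1 and Apoe, the 8 members with the widest range and the 8 with the smallest p (exceptions are named as such). Of the 42 further sterol genes, the 8 with the smallest p and the 6 with the widest range are named; some genes of that list are not reported here. Replicate numbers were not used to pair pools: the deviations of same-numbered pools from their group means correlated at -0.63, -0.68 and 0.60. Alternatives covered normalization, dim features, moderation, array weights, single arrays left out, a replicate block and the marker term.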

Additional observations from a re-analysis of the deposited data

How the results depend on the processing

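Over the 16 other settings of the fit, limma called 0 of the 27 members in each, and also at an adjusted p of 0.10; the members' adjusted p ranged from 0.393 to 1.00. The members' median difference was 0.05 with the replicate number as a block, in which 0 members were called, and ranged from -0.28 to 0.35 when 1 array was left out: -0.28 without alcohol pool 2 and 0.35 without control pool 1, which leaves 1 marker-low pool in 1 group alone. The count of members whose groups did not overlap ranged from 0 to 8 with 1 array left out. It was 4 without alcohol pool 2, 8 without control pool 1, and 2 each without control pool 2 and control pool 3. The share over all features was not computed for these fits, so the counts cannot be set against it. In the 4 arrays with high cerebellar markers, where fewer arrays make separation easier, the count was 12. There 17.7% of all features had both alcohol values above both control values and 22.0% had them below. With the marker term 1 member (Pmvk) had an unadjusted limma p under 0.05, against 9.47% of all features. The count was 1 with array weights (Idi1) and ranged from 0 to 1 with 1 array left out (Srebf1 without control pool 3). For array weights and left-out arrays the share over all features was not computed, so these counts are not read as results about the members.

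No member was called, so a change of sign concerns differences that the test did not separate from 0. In the 4 arrays the sign turned for Fdps (0.079), Insig2 (0.055) and Apoe (-0.073). With array weights it turned for Insig2 (0.047) and Abca1 (0.0017). With each array centred on its median it turned for Mvd (0.023) and Srebf2 (0.012), and with quantile normalization for Mvd (0.018), Srebf2 (0.013) and Apoe (-0.023). The cause was not tested.

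Leaving out 1 array in turn changed the sign for 21 members. The differences then ranged from -0.47 to 0.78 for Acat2, -0.24 to 0.81 for Hmgcs1, -0.86 to 0.12 for Pmvk, -0.25 to 0.17 for Mvd, -0.30 to 0.35 for Fdps, -0.15 to 0.42 for Fdft1, -0.34 to 0.73 for Sqle and -0.25 to 0.44 for Lss. They ranged from -0.41 to 0.53 for Cyp51, -0.71 to 0.32 for Tm7sf2, -0.48 to 0.63 for Msmo1, -0.28 to 0.49 for Nsdhl, -0.28 to 0.47 for Hsd17b7, -0.041 to 0.50 for Sc5d and -0.56 to 0.67 for Dhcr7. They ranged from -0.17 to 0.16 for Srebf2, -0.11 to 0.40 for Insig1, -0.087 to 0.041 for Insig2, -0.25 to 0.22 for Apoe, -0.17 to 0.32 for Abcg1 and -0.22 to 0.031 for Cyp46a1. The sign held in each of these fits for the other 6, with ranges of -0.84 to -0.028 for Abca1, 0.20 to 0.61 for Idi1, -0.63 to -0.21 for Srebf1, -0.42 to -0.12 for Mvk, -0.35 to -0.15 for Ebp and 0.099 to 0.22 for Stard4.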
